A study of Mus musculus with 12 samples.

Results

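Organoids in which Yap had been switched on in the liver and then off in culture were compared here with 3 control libraries that never had Yap induced, on 6 of the 12 arrays of the series. Yap is a coactivator of transcription that the Hippo kinases hold in check, and the study asked about liver progenitor cells that its expression generates. The Yap-off group holds the 3 libraries labelled Yap Organoid Minus Dox, in which Yap was on in the liver for 3 weeks and off during 2 weeks of organoid culture without doxycycline. The controls were chosen by a measured value, from the 3 libraries labelled uninduced YFP+ hepatocyte, which are liver cells sorted by FACS, and the 3 labelled wild-type organoid, grown for 2 weeks. Those with a log2 intensity of Lyz2, a lysozyme of macrophages, below 9 were kept, which leaves hepatocyte 1, hepatocyte 3 and wild-type organoid 2. They are called the low-Lyz2 controls, and their labels are mixed: 2 are named as sorted cells and 1 as an organoid. All libraries share the strain background C57Bl6. What drives Yap, the transgene's sequence, the allele behind YFP and the animals' ages are not given in the labels. Nor do they tie each library to an animal, so every p-value below is set by how much these particular libraries vary, and that variation may be technical.

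Lyz2 chose the controls, so its values are a description. In the kept libraries it stood at 5.28 in hepatocyte 1, 6.30 in hepatocyte 3 and 6.19 in wild-type organoid 2 (log2 intensity, as are all levels below, always in this order of libraries). The control libraries left out stood at 12.04 in hepatocyte 2, 11.56 in wild-type organoid 1 and 12.16 in wild-type organoid 3, so the values nearest the threshold were 6.30 inside and 11.56 outside. The Yap-off organoids 1, 2 and 3 stood at 5.50, 5.58 and 5.78. The median of the 25 macrophage markers measured was near the low end of the scale in all 6 libraries compared. It lay between 3.10 and 3.83 in the controls and between 3.49 and 3.72 in the Yap-off organoids. Not every member was that low, and Csf1r, described below, was well above this in the controls. Adgre1, the F4/80 antigen, lay between 2.80 and 3.03 in the controls and between 2.85 and 3.01 in the Yap-off organoids, and Clec4f, a lectin of Kupffer cells, between 3.31 and 3.76 over both. Summed on the linear scale, the 25 macrophage markers measured came to between 395 and 794 per control library and between 387 and 569 per Yap-off library, against 26887 to 50711 in the libraries left out. The 26 endothelial markers summed to between 363 and 499 and between 368 and 456, the 25 lymphocyte and neutrophil markers to between 201 and 280 and between 264 and 272, and the 8 red cell markers to between 134 and 154 and between 152 and 179. The 26 stellate and fibroblast markers summed to between 3253 and 3730 in the controls and between 2295 and 3084 in the Yap-off organoids, carried largely by Vim and Sparc.

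The kept controls were not duct cells alone by these measures. Krt19, a keratin of bile ducts, was high in them (10.21, 9.82 and 9.28), but so was albumin (Alb, 12.33, 12.13 and 11.94) and the fetal albumin Afp (12.20, 12.10 and 11.16). Cyp2e1, an enzyme of mature hepatocytes, was low (3.16, 3.22 and 2.74). The name low-Lyz2 control is used for that reason in place of a cell type. Hepatocyte 1 and hepatocyte 3 were close to each other (Pearson r = 0.989 across genes, which are not independent replicates), and wild-type organoid 2 stood apart from both (0.953 and 0.955). In 1347 genes both of them differed at least 2-fold in the same direction from wild-type organoid 2, whereas at most 288 genes set 1 Yap-off library apart from the other two in that way. Correlations among the Yap-off organoids ran from 0.975 to 0.983 and between them and the controls from 0.934 to 0.952. Between the controls kept and those left out they ran from 0.800 to 0.826. Each kept control was thus closer to the other kept ones than to any left-out library of its own label. Whether the labels are right was not tested. Sex-linked genes marked wild-type organoid 2 as well. Xist, the RNA of the inactive X chromosome, stood at 8.82, 9.0 and 3.14 in the controls and 9.20, 8.49 and 8.98 in the Yap-off organoids. The Y-linked Eif2s3y stood at 2.78, 2.88 and 7.05 and at 2.85, 2.63 and 2.50. Wild-type organoid 2 thus had the pattern of a male library and the other 5 that of female ones, and no fit held a term for sex. Results are therefore given without wild-type organoid 2 where that matters, a fit in which all 5 libraries are alike in Xist. Summed on the linear scale, the 7 sex-linked genes came to between 185 and 308 in the libraries left out. The sum was 314 in wild-type organoid 2 and between 400 and 632 in the Yap-off organoids. Fits with all 6 controls may therefore mix sex further, which was not tested.

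**Figure D1:**
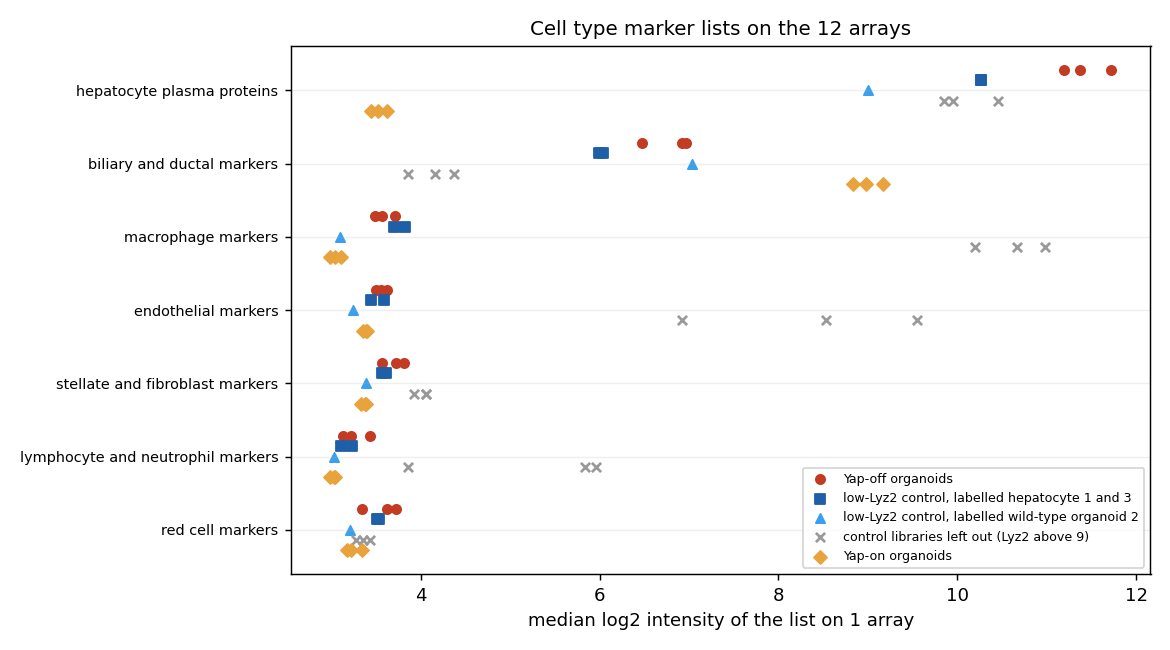
Median log2 intensity of 7 cell type marker lists on each of the 12 arrays, one point per array, by group. The plasma protein list is high and the macrophage, endothelial, lymphocyte and red cell lists low in the 3 Yap-off organoids and the 3 low-Lyz2 controls. In the 3 control libraries left out the macrophage median is between 10.20 and 10.99. Their plasma protein medians (9.86 to 10.45) and red cell medians (3.27 to 3.43) are similar to those of the low-Lyz2 controls.

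As background, hepatocytes and bile duct cells arise from a common fetal progenitor, and adult hepatocytes in which Yap is active can take on features of ducts and progenitors. YAP binds TEAD transcription factors and raises a set of target genes, several of which feed back on the Hippo kinases. Hepatocytes are known for secreting plasma proteins and clotting factors, for detoxifying foreign compounds with cytochrome P450 enzymes, and for the urea cycle, bile acid synthesis and gluconeogenesis.

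Between the Yap-off organoids and the low-Lyz2 controls, limma called 751 of 19937 genes (3.77%) at a Benjamini-Hochberg adjusted p under 0.05. Of these 267 (1.34%) were higher and 484 (2.43%) lower in the Yap-off organoids, and 237 and 291 differed at least 2-fold. The increases were the larger changes: the median log2 difference of called genes was 2.10 for those higher and -1.08 for those lower, and over all genes it was 0.02. In all 751 genes the groups did not overlap, as was the case in 4703 (23.6%) of all genes. The split of calls depended on the scaling, since renewed quantile normalization of the 6 arrays gave 235 higher and 147 lower. Among the genes called, 187 (0.938% of all) were also above and 162 (0.813%) below the 3 control libraries left out.

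The choice of controls set many of the calls. Of the 19937 genes, 6747 (33.8%) did not overlap between the 3 controls kept and the 3 left out, and 515 of the 751 called genes were among them. With all 6 control libraries, 115 genes (0.577%) were higher and 68 (0.341%) lower, and 101 and 50 of them were among the main calls in the same direction. Without wild-type organoid 2, 669 (3.36%) were higher and 1177 (5.9%) lower, and 264 of the 267 and 476 of the 484 main calls were kept. Each other library changed the counts too: 99 higher and 42 lower without hepatocyte 1, 126 and 49 without hepatocyte 3, 198 and 206 without Yap-off organoid 1, 102 and 51 without Yap-off organoid 2, and 89 and 40 without Yap-off organoid 3. Of the 200 genes that the naming rule chose, 91 were called, and 90 kept the call without wild-type organoid 2, 49 without hepatocyte 1, 53 without hepatocyte 3, and 64, 51 and 46 without Yap-off organoids 1, 2 and 3. These comparisons share the Yap-off arrays, so they are not independent of each other. Counts of list members called below are to be read beside the share of all genes called in the same fit. In bulk libraries fewer cells of a type and less RNA per cell cannot be told apart.

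**Figure D2:**
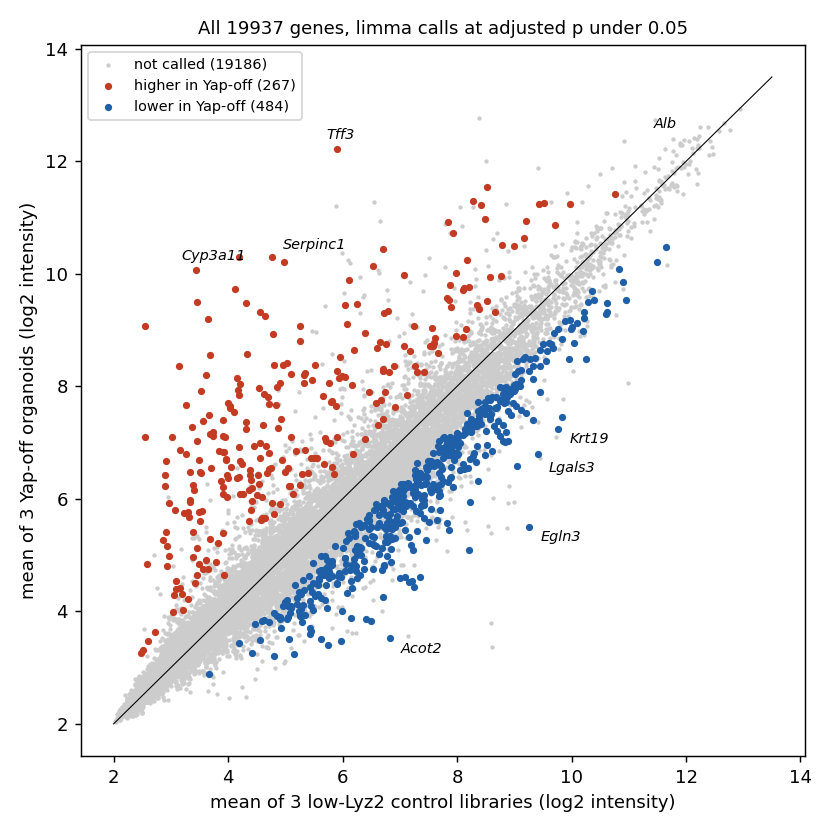
Mean log2 intensity of the 3 Yap-off organoids against that of the 3 low-Lyz2 controls, one point per gene, with the line of equality. The 267 genes called higher include many with control means near the low end of the scale, such as Cyp3a11, and the 484 called lower lie closer to the line.

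The genes with the largest differences among those above all 6 control libraries encode mostly liver enzymes and secreted proteins. Cyp3a11, a drug-metabolizing cytochrome P450, stood at 3.29, 4.05 and 2.98 in the controls and at 10.09, 10.03 and 10.06 in the Yap-off organoids. It had the largest difference of all called genes, 6.62 (log2, SE 0.27, adjusted p = 0.00031). Sult1e1, the estrogen sulfotransferase, stood at 2.77, 2.52 and 2.34 against 8.84, 8.99 and 9.41 (difference 6.54, SE 0.20, adjusted p = 0.00016). Both were near the low end of the scale in every control, and the groups were far apart. Sult1e1 was as low in the libraries left out, at 2.50 to 2.76, whereas Cyp3a11 stood there at 8.01, 8.16 and 8.15. Tff3, a trefoil peptide secreted with mucus by intestinal epithelium, stood at 5.27, 6.32 and 6.15 against 11.97, 12.26 and 12.41 (difference 6.30, SE 0.29, adjusted p = 0.00053). In the Yap-on organoids, which were not part of the test, it stood at 8.19, 10.59 and 8.34. Of the 27 gastric and intestinal genes measured Tff3 was the 1 called, a share near the 3.77% of all genes, and the list's median difference was 0.11.

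Cyp2b10, a cytochrome P450 induced through the receptor CAR, stood at 3.69, 3.54 and 3.12 against 9.48, 9.71 and 9.32 (difference 6.05, SE 0.19, adjusted p = 0.00016). The metallothionein Mt4 stood at 4.05, 5.07 and 3.48 against 9.94, 10.13 and 10.81 (6.09, SE 0.43). Neither was high in any of the control libraries left out, which ran from 3.65 to 4.17 for Cyp2b10 and from 3.65 to 3.81 for Mt4. The carboxylesterase Ces1c (5.60), the proteinase inhibitor murinoglobulin Mug2 (5.53), the WAP-domain protein Wfdc21 (5.23), the retinol dehydrogenase Rdh9 (4.40), the GDNF receptor Gfra1 (4.25) and the interferon-inducible GTPase Iigp1 (4.14) were among the 15 largest as well. All 15 kept their call in each of the 6 fits that left out 1 library. With all 6 controls the calls of Sult1e1, Tff3, Mt4, Cyp2b10, Rdh9, F9 and Gfra1 held, with adjusted p between 5.4e-07 and 0.016. Probes of Ces1c, Mug2 and the P450 genes may read close paralogs, which was not tested. In 92 of the 267 genes called higher the control mean was below the lowest array median of 4.14, so their differences were measured from near the low end of the scale.

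**Figure D3:**
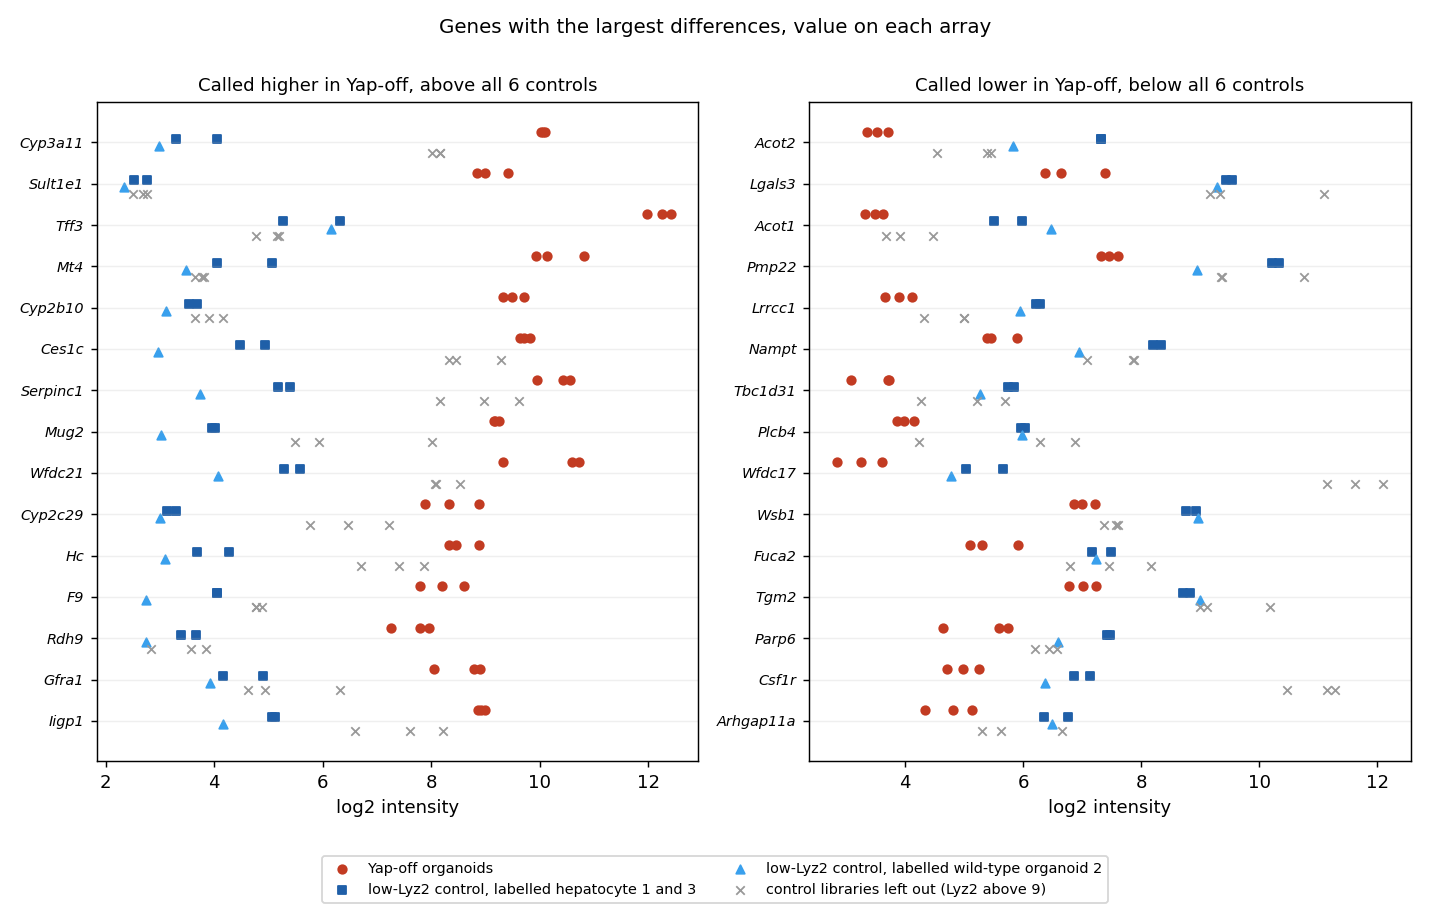
Log2 intensity on each array for the 15 genes with the largest differences in either direction among those called and beyond all 6 control libraries. In the left panel the 3 Yap-off points of each gene sit to the right of all control points, and in the right panel to the left of them.

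Plasma proteins of the liver were higher in part. Of 23 measured plasma proteins 7 were called higher, beside 1.34% of all genes, and 0 lower, and the list's median difference was 1.51 beside 0.02 over all genes. All 23 differences were above 0. Albumin did not pass the test, at 12.26, 12.42 and 12.54 in the Yap-off organoids (difference 0.27, 95% interval from -0.09 to 0.64, adjusted p = 0.42). Among the called genes Hpx, the heme scavenger hemopexin, stood at 8.33, 8.26 and 8.99 against 11.19, 11.72 and 11.72 (difference 3.02, SE 0.25, adjusted p = 0.0038). Hpx was above all controls, while the plasma protein list as a whole was lower in wild-type organoid 2 (median 9.0) than in hepatocyte 1 and 3 (10.26 and 10.27). Itih1, an inhibitor chain that binds hyaluronan, was higher by 3.58 and vitronectin (Vtn) by 1.27. Without wild-type organoid 2, 15 of the 23 were called higher, beside 3.36% of all genes, and the median was 1.04. Against all 6 controls 3 were called higher. Members of a list named here and below beyond the 4 with the largest differences were chosen after their values were seen.

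Complement and coagulation factors had the largest share called, 13 of 28 measured and all of them higher, beside 1.34% of all genes. The list's median difference was 2.22. Antithrombin (Serpinc1), the main inhibitor of thrombin, stood at 5.39, 5.17 and 3.73 against 9.95, 10.42 and 10.55 (difference 5.54, SE 0.44, adjusted p = 0.0032). Clotting factor IX (F9) stood at 4.04, 4.06 and 2.74 against 7.79, 8.20 and 8.61 (4.59, SE 0.40, adjusted p = 0.0044). In both genes wild-type organoid 2 was the lowest library and the Yap-off organoids were above all 6 controls. Complement component 5 (Hc) stood at 4.27, 3.69 and 3.09 against 8.33, 8.45 and 8.89 (4.87, SE 0.31, adjusted p = 0.002). C8a and C8b, chains of the membrane attack complex that C5 starts, were higher by 2.52 and 3.50, although C8b reached 8.35 in a library left out, above the highest Yap-off value of 7.91. Factors V (F5, 3.57), VII (F7, 3.53) and XI (F11, 2.00), heparin cofactor II (Serpind1, 3.08), antiplasmin (Serpinf2, 3.01) and protein C (Proc, 1.47) were also higher. Plasminogen (Plg) did not pass, at 8.17, 8.26 and 3.21 against 11.07, 11.36 and 11.39 (difference 4.73, SE 1.30, adjusted p = 0.1), and it passed without wild-type organoid 2 (3.06, adjusted p = 0.00078). Against all 6 controls 7 members were called higher.

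Enzymes of drug and bile acid metabolism were higher in part. Of 23 cytochrome P450 and conjugating enzymes 5 were higher and 2 lower, with a median difference of 0.98. The counts were 9 and 2 without wild-type organoid 2, and with all 6 controls 1 and 0. Those higher were all P450 genes: besides Cyp3a11 and Cyp2b10 these were Cyp2c29 (5.21), Cyp1a2 (5.16) and Cyp2f2 (3.45). Cyp2e1 did not pass, at 5.58, 3.89 and 4.93 in the Yap-off organoids (difference 1.76, SE 0.41, adjusted p = 0.073), well below the 9.90 to 10.14 of the control libraries left out. Aldh1a1, a retinaldehyde dehydrogenase, was lower by 1.28 (11.25, 11.64 and 11.58 against 10.14, 10.16 and 10.32), and the epoxide hydrolase Ephx1 was lower by 1.22. Aldh1a1 was higher in the Yap-off organoids than in any library left out, which reached 9.22. Among the 21 bile acid synthesis and transport genes 8 were higher and 0 lower, with a median of 1.12 and every difference above 0. The count was 1 with all 6 controls. Slc10a1, the uptake carrier NTCP, stood at 3.66, 4.24 and 4.11 against 6.96, 8.16 and 7.97 (difference 3.69, SE 0.34, adjusted p = 0.0051). Slc27a5, the bile acid CoA ligase, was higher by 4.40, the steroid reductase Akr1d1 by 3.37 and the canalicular export pump Abcb11 by 2.23. Among the 8, the Yap-off values of Akr1d1 alone were above all 6 controls. The rate-limiting enzyme Cyp7a1 differed by 2.29 and did not pass (3.50, 5.86 and 5.64 against 2.80, 2.74 and 2.60, adjusted p = 0.092).

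The promoter of Cyp3a11 (chr5:145879855-145880104, minus strand, GRCm38.p6, RefSeq) is shown for the gene with the largest difference. The letters AGTTCA, a form of the core that nuclear receptors bind, are in capitals, here on the opposite strand. Other forms of the core were not searched or marked. The window is the 250 bases before the gene start, 5′ to 3′ on the gene's strand. Genes whose promoters are shown were chosen after their values were seen.
Cyp3a11: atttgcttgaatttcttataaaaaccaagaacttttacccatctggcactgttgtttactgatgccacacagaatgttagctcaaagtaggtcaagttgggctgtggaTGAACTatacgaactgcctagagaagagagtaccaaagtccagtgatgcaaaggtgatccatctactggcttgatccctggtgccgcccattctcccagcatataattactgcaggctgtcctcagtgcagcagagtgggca
Of the 22 windows of the 19 P450 and conjugating genes that matched, 1 held AGTTCA on either strand (4.55%), this one, against 10.2% of the 19176 windows of all genes measured. A match of letters is a description of the window and not a binding site.

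Amino acid breakdown, gluconeogenesis and lipid synthesis had further genes that were higher. Of 20 urea cycle and amino acid genes 5 were higher and 1 lower (median difference 2.65). Otc, the ornithine carbamoyltransferase of the urea cycle, stood at 3.06, 2.96 and 2.75 against 6.39, 7.32 and 6.33 (difference 3.76, SE 0.28, adjusted p = 0.0026). Homogentisate dioxygenase (Hgd, 4.6), histidine ammonia-lyase (Hal, 3.16), Agxt (2.97) and tyrosine aminotransferase (Tat, 1.72) were higher, and ornithine aminotransferase (Oat) was lower by 1.45. Cps1, which makes carbamoyl phosphate for the cycle, did not pass, at 9.23, 9.83 and 5.07 against 10.92, 11.09 and 11.55 (3.15, SE 1.17, adjusted p = 0.21). As with Plg, wild-type organoid 2 was the low library, and without it Cps1 differed by 1.66 (adjusted p = 0.016) and 12 of the 20 genes were called higher and 1 lower. Against all 6 controls limma called 0 of the 20 higher and 1 lower (11 at an unadjusted p under 0.05). The 2 enzymes that release glucose at the end of gluconeogenesis and start it from oxaloacetate, G6pc and Pck1, were higher by 3.20 and 3.37. G6pc stood at 3.69, 3.81 and 2.97 against 6.75, 6.83 and 6.47 and kept its call in 6 of 6 fits without 1 library. Pck1 stood at 5.88, 5.69 and 3.54 against 8.05, 8.77 and 8.40, and its call held in 1 of those 6 fits, that without wild-type organoid 2. Glycogen synthase of liver, Gys2, was higher by 2.65, so that with Tat 4 of 17 genes of this list were higher and 0 lower (median 0.34). That list had 5 higher and 6 lower and a median of -0.09 without wild-type organoid 2, and with all 6 controls 1 higher and 0 lower.

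Of the lipid genes called, those of fatty acid synthesis were higher and those of oxidation lower against the low-Lyz2 controls. In fatty acid synthesis 3 of 20 genes were higher and 0 lower (median 0.49): the desaturases Scd1 and Fads2 and the regulator Srebf1 (1.81, 1.37 and 0.70). Scd1 stood at 9.5, 9.69 and 9.11 against 10.93, 11.21 and 11.60 (SE 0.23, adjusted p = 0.014). Of 26 genes of fatty acid oxidation and PPAR-alpha response, 5 were lower, beside 2.43% of all genes, and 0 higher (median -0.32). They were the acyl-CoA thioesterases Acot2 (-3.30) and Acot1 (-2.50), the lipid droplet coat protein Plin2 (-1.48) and the oxidation enzymes Acadl (-1.05) and Hadhb (-0.84). Plin2 stood at 10.27, 10.01 and 9.60 against 8.55, 8.38 and 8.52 (SE 0.19, adjusted p = 0.015), below all 6 controls. Probes of Acot1 and Acot2 may not separate these close paralogs. Without wild-type organoid 2 synthesis had 8 higher and 1 lower and oxidation 0 higher and 9 lower. Among all genes 3.36% were higher and 5.9% lower in that fit. Against all 6 controls limma called 0 genes of either list (8 and 3 at an unadjusted p under 0.05), and both medians were above 0 (1.0 and 0.22). Pdk4, the pyruvate dehydrogenase kinase of fasting, did not pass (10.35, 10.29 and 5.0 against 6.77, 4.77 and 5.0), and it did without wild-type organoid 2 (-4.81, adjusted p = 0.0076). Of 20 cholesterol genes, Dhcr7, the last enzyme of cholesterol synthesis, was the 1 called (2.45, adjusted p = 0.048, and not called under renewed quantile normalization).

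Among 19 transcription factors and nuclear receptors of hepatocytes, 3 were higher and 1 lower, and the median difference was -0.08. These were 3 and 4 with a median of -0.22 without wild-type organoid 2, and with all 6 controls 1 and 0. Foxa3, a forkhead factor of endoderm, stood at 6.68, 6.82 and 6.69 against 9.08, 9.25 and 9.58 (difference 2.57, SE 0.16, adjusted p = 0.002). The 3 controls were close to each other and the Yap-off organoids were above all 6 controls. Nr1i3, which encodes CAR, stood at 3.91, 4.03 and 3.52 against 5.45, 4.73 and 5.48 (1.40, SE 0.25, adjusted p = 0.038). Hnf4a, a master regulator of hepatocytes, was higher by 0.99 (8.21, 8.46 and 8.91 against 9.41, 9.62 and 9.53, SE 0.20, adjusted p = 0.049). Onecut1, a factor of fetal liver and ducts, was lower by 1.22 (8.04, 8.25 and 7.72 against 6.34, 6.89 and 7.13, SE 0.24, adjusted p = 0.048). Calls of Nr1i3 and Onecut1 were lost under renewed quantile normalization.

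Acute phase and inflammation genes were higher for 8 of 28 measured, beside 1.34% of all genes, and lower for 0, with a median difference of 1.95. The count was 1 with all 6 controls and 12 without wild-type organoid 2. The serum amyloids Saa1, Saa2, Saa3 and Saa4 were higher by 4.55, 2.40, 3.76 and 3.34. Saa1 stood at 2.70, 2.47 and 2.48 against 5.84, 7.71 and 7.76, and at 9.97 in the left-out hepatocyte 2. The interleukin-1 receptor antagonist Il1rn stood at 5.56, 4.64 and 5.55 against 9.04, 9.03 and 9.16 (difference 3.83, SE 0.26, adjusted p = 0.0021), above all 6 controls. Steap4, a metalloreductase, stood at 4.03, 4.32 and 4.27 against 7.89, 7.90 and 8.33 (3.83, SE 0.17, adjusted p = 0.00049). The acid glycoprotein Orm1 (3.79) and C-reactive protein (Crp, 2.55) completed the list. Saa1 and Saa2 are near-identical genes, and their values are uncertain for that reason.

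YAP target genes were lower or did not pass. Yap1 itself stood at 7.20, 7.07 and 7.50 in the controls and 7.35, 7.21 and 6.88 in the Yap-off organoids (difference -0.11, 95% interval from -0.55 to 0.33, adjusted p = 0.83), and the groups overlapped. No source says whether its probes read the transgene, so it does not check the labels. Of 26 YAP and TEAD target genes 7 were lower, beside 2.43% of all genes, and 0 higher. The list's median difference was -0.50, and 19 differences were below 0. Ankrd1, a muscle and stress ankyrin repeat protein, stood at 10.40, 10.07 and 10.19 against 9.46, 9.13 and 9.39 (-0.89, SE 0.15, adjusted p = 0.035). The groups did not overlap but lay close together, while the control libraries left out stood at 3.39 to 3.47. Gadd45b, a stress-induced gene, stood at 8.84, 9.98 and 8.34 against 6.58, 6.67 and 6.50 (-2.47, SE 0.39, adjusted p = 0.029). The ligand Tgfb2 (-1.37), the angiomotin Amotl1 (-1.09), the Hippo kinase Lats2 (-1.01), the receptor tyrosine kinase Axl (-1.0) and the phosphatase Ptpn14 (-0.95) were lower too. Among these 7, Amotl1, Axl, Ptpn14 and Ankrd1 kept the call in 1 of the 6 fits without 1 library, that without wild-type organoid 2, and Amotl1 and Ptpn14 alone kept it under renewed quantile normalization.

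The best-known targets did not pass the test. Ccn1 (Cyr61) stood at 10.25, 10.41 and 9.92 against 10.32, 9.67 and 10.04 (-0.19, interval from -0.70 to 0.33). Ccn2 (Ctgf) stood at 10.40, 10.06 and 10.92 against 10.54, 10.12 and 10.06 (-0.22, interval from -0.82 to 0.38). Both genes were high in all 6 libraries and the groups overlapped. The other 17 members that did not pass ranged from -1.65 for the ectonucleotidase Nt5e to 1.22 for the kinase Nuak2. Amotl2 (-0.95), F3 (-1.28), Crim1 (-0.47), Wwc1 (-0.59), Myof (-0.76), Ajuba (-0.53), Dock5 (-0.32), Rbms3 (-0.31), Edn1 (-0.02), Arhgef17 (0.07), Asap1 (0.07), Birc5 (0.18), Foxf2 (0.24), Fjx1 (0.46) and Fstl1 (0.62) lay between them. Nuak2 was the 1 member called higher without wild-type organoid 2 (2.13, adjusted p = 0.025), where 9 were lower, beside 5.9% of all genes. With all 6 controls limma called 0 members (2 at an unadjusted p under 0.05) and the median was 0.18. Of 25 Hippo pathway genes and TEAD factors 3 were lower, beside 2.43% of all genes, and 0 higher (median -0.54). The 3 were the kinases Stk4 (-1.11) and Lats2 (-1.01) and the scaffold Wwc2 (-0.85). With all 6 controls 3 genes of the list were called lower, beside 0.341% of all genes. They were not the same 3, since Lats2 is also a listed YAP target and 0 of those were called in that fit. Under renewed quantile normalization limma called 0 genes of the Hippo list (8 at an unadjusted p under 0.05). Without wild-type organoid 2, 7 of the Hippo list were lower and 0 higher, beside 5.9% lower among all genes.

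Promoters of Ankrd1 (chr19:36119845-36120094, minus strand) and Axl (chr7:25788734-25788983, minus strand) are shown because both targets were lower and hold GGAATG, the core of the TEAD motif, given in capitals (250 bases before the gene start, RefSeq, GRCm38.p6).
Ankrd1: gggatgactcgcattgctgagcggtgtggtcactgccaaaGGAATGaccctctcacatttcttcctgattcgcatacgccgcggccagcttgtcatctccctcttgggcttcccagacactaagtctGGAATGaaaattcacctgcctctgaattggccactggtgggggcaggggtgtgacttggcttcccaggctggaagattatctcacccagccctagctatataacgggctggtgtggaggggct
Axl: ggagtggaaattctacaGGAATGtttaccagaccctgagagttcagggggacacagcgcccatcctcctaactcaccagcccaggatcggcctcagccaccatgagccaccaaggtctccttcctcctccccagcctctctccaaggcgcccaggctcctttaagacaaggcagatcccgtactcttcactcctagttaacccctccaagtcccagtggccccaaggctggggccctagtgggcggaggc
GGAATG was found on either strand in 8 of the 22 windows of the 20 listed targets that matched (36.4%) and in 11.4% of all windows. The list was made of known TEAD targets, so this share is not evidence about these libraries.

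Ductal genes were mixed. Of 24 biliary and ductal markers 2 were higher and 1 lower, with a median difference of -0.16. The counts were 3 and 4 without wild-type organoid 2, and with all 6 controls 1 and 0 with a median of 0.97. Krt19 was lower, at 10.21, 9.82 and 9.28 against 7.56, 7.0 and 7.18 (-2.52, SE 0.27, adjusted p = 0.0081), and its direction depended on the controls: in the libraries left out it stood at 4.28 to 4.95, so that against all 6 controls the difference was 0.0047 (adjusted p = 1.00). Krt23, a keratin of injured liver, stood at 4.46, 4.07 and 4.20 against 6.38, 6.85 and 6.61 (2.37, SE 0.18, adjusted p = 0.0026) and was above all 6 controls. The tight junction protein Cldn3 was higher by 1.46 (7.12, 7.34 and 6.26 against 8.25, 8.38 and 8.46). Krt7, the partner of Krt19 in ducts, did not pass (9.83, 9.79 and 10.46 against 7.63, 9.05 and 8.15, -1.75, adjusted p = 0.059). Krt8 (-0.53), Krt18 (-0.41), the progenitor factor Sox9 (-0.30) and E-cadherin (Cdh1, -0.18) did not pass and were high in all 6 libraries, from 7.54 for Sox9 to 12.28 for Krt18. Of 19 biliary and epithelial transcription factors limma called 0 (3 at an unadjusted p under 0.05), and 2 in each direction without wild-type organoid 2. Spp1 was not analysed here.

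Single junction and matrix genes were called in either direction. Gjb1, the gap junction protein of hepatocytes, was higher by 2.02 (7.08, 8.41 and 8.47 against 9.91, 10.09 and 10.03, SE 0.37, adjusted p = 0.041). Desmoplakin (Dsp) was lower by 1.54 (9.23, 9.21 and 8.92 against 7.81, 7.29 and 7.63, SE 0.18, adjusted p = 0.01). With Cldn3 these were the 3 of 24 junction genes called, beside 3.77% of all genes. In the basement membrane list 3 of 23 were lower, beside 2.43% of all genes, and 0 higher. All 3 were laminin chains: Lamc1 (-1.48), Lamb3 (-1.37) and Lamb2 (-1.18). The matrix list had 2 higher and 5 lower without wild-type organoid 2, and the junction list 5 and 2. Lamc1 stood at 8.55, 8.92 and 8.92 against 7.33, 7.05 and 7.58, and at 4.02, 6.48 and 4.41 in the libraries left out. Dsp and Lamc1, like Krt19, thus lay between both kinds of control library, and with all 6 controls their differences were 1.18 and 0.44 and not called.

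Glycolysis and hypoxia genes showed how the 3 controls differ. In this list 4 of 22 were lower and 0 higher, the median difference was -1.47 and 21 differences were below 0. The list's median level was 10.04 in hepatocyte 1 and 10.09 in hepatocyte 3 but 7.31 in wild-type organoid 2, beside 6.64, 7.20 and 7.21 in the Yap-off organoids. Egln3, a prolyl hydroxylase that hypoxia induces, stood at 10.25, 10.11 and 7.43 against 5.46, 5.57 and 5.48 (-3.76, SE 0.72, adjusted p = 0.044). Adm, the peptide adrenomedullin, stood at 10.66, 10.53 and 4.6 against 3.66, 3.87 and 3.86 (-4.80, SE 1.55, adjusted p = 0.15). In both genes hepatocyte 1 and 3 were high, and for Adm wild-type organoid 2 was close to the Yap-off organoids. The glycolytic enzymes Pgk1 (-1.42), Aldoa (-1.18) and Ldha (-1.06) were lower, with wild-type organoid 2 the lowest control in each. Pgk1 stood at 11.39, 11.16 and 10.32 against 9.54, 9.47 and 9.60. Without wild-type organoid 2, 20 of the 22 were called lower, beside 5.9% of all genes, and the median was -2.13, with Adm at -6.80 (adjusted p = 8.5e-05), Egln3 at -4.68 (0.00013) and Ndrg1, a hypoxia and stress gene, at -3.56 (0.0014). With all 6 controls limma called 0 (3 at an unadjusted p under 0.05). The labels name hepatocyte 1 and 3 as sorted cells and wild-type organoid 2 as cultured, and within the controls this label and the library cannot be told apart. As given above, hepatocyte 1 and 3 were closer to wild-type organoid 2 than to the left-out hepatocyte 2, and the labels were not tested.

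The promoters of Egln3 (chr12:54203875-54204124, minus strand) and Pgk1 (chrX:106186850-106187099, plus strand) are shown as 2 of the 4 members called lower, with ACGTG, the core letters bound by hypoxia-inducible factors, in capitals (250 bases before the gene start, RefSeq, GRCm38.p6, both strands searched).
Egln3: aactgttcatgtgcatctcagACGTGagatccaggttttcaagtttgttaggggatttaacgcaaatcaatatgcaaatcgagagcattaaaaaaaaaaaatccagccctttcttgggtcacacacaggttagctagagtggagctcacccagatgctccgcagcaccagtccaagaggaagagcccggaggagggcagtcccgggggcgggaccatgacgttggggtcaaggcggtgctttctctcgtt
Pgk1: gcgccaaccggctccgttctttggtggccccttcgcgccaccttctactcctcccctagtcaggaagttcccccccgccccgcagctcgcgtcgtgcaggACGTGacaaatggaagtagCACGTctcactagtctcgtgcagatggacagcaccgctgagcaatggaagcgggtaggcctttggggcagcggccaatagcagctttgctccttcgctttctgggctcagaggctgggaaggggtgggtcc
Egln3 holds 1 match and Pgk1 holds 2. In the list as a whole 16 of 29 windows of 21 matched genes held ACGTG (55.2%), against 18.4% of all windows, and the list was made of known hypoxia and glycolysis genes.

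**Figure D4:**
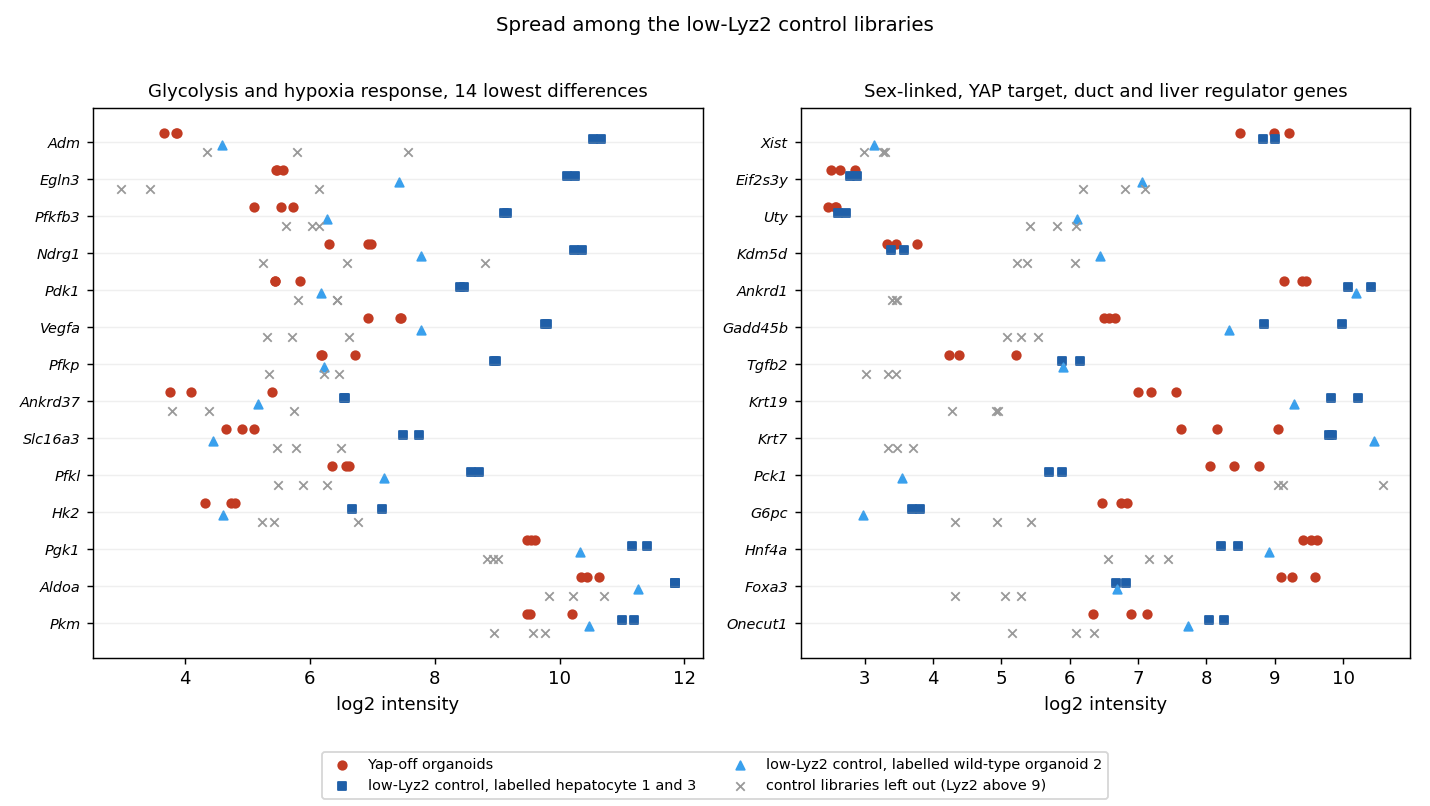
Log2 intensity on each array for the 14 glycolysis and hypoxia genes with the lowest differences (left) and for sex-linked, YAP target, duct and liver regulator genes (right). For Adm, hepatocyte 1 and 3 sit at 10.66 and 10.53 and wild-type organoid 2 at 4.6, near the Yap-off organoids, and Xist separates wild-type organoid 2 (3.14) from the other 5 libraries compared.

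The genes with the largest decreases among those below all 6 controls were smaller in size than the increases and mixed in function. Lgals3, the lectin galectin-3, stood at 9.54, 9.43 and 9.28 against 6.37, 7.39 and 6.63 (-2.62, SE 0.27, adjusted p = 0.007). Pmp22, a membrane protein of myelin and epithelia, stood at 10.21, 10.33 and 8.94 against 7.44, 7.61 and 7.31 (-2.37, SE 0.37, adjusted p = 0.028). Tgm2, a transglutaminase, stood at 8.83, 8.71 and 8.99 against 6.78, 7.0 and 7.23 (-1.84, SE 0.16, adjusted p = 0.0047). In these 3 genes the decrease was called with all 6 controls as well (adjusted p from 0.024 to 0.039). Nampt, the rate-limiting enzyme of NAD salvage, was lower by 2.25, and called with all 6 controls too (adjusted p = 0.03). The centrosomal protein Lrrcc1 (-2.26), Tbc1d31 (-2.12), the phospholipase Plcb4 (-1.99), Wsb1 (-1.86), the fucosidase Fuca2 (-1.86), Parp6 (-1.83) and Arhgap11a, a GTPase-activating protein (-1.78), were in this group of 15 with Acot1 and Acot2. It also held Wfdc17 (-1.92) and Csf1r (-1.80), both high in macrophages. Unlike the 15 leading increases, not all of these decreases kept their call when 1 library was left out. Csf1r and Acot2 lost it without hepatocyte 1, hepatocyte 3, Yap-off organoid 2 or Yap-off organoid 3. Arhgap11a lost it without hepatocyte 1 or hepatocyte 3, and Acot1 kept it throughout. With all 6 controls limma called none of Csf1r, Acot1, Acot2 and Arhgap11a (adjusted p from 0.12 to 0.35). Csf1r, the receptor for the macrophage growth factor CSF1, stood at 6.86, 7.13 and 6.37 against 4.71, 4.98 and 5.25, and at 10.46 to 11.29 in the libraries left out. It was the 1 of 25 macrophage markers called. Without wild-type organoid 2, 3 of these markers were called lower and 0 higher, beside 5.9% lower among all genes. Since the controls were chosen on a macrophage gene, the levels of these markers there are not independent of the choice.

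Some called genes hang on which controls are used, since their Yap-off values lay inside or beyond those of the libraries left out: 80 of the 267 called higher and 322 of the 484 called lower. Cyp1a2, a P450 of drug metabolism, stood at 5.10, 4.51 and 3.35 in the kept controls, 10.07, 9.58 and 8.78 in the Yap-off organoids and 6.66, 8.85 and 8.64 in the libraries left out. The others of the 8 largest called higher were the chemokine Ccl9 (4.77), Hgd, Saa1, Slc27a5, the aldehyde oxidase Aox3 (4.08), Haao of tryptophan breakdown (3.99) and the peroxisomal oxidase Hao1 (3.91). Among those lower, Akr1c14, a hydroxysteroid dehydrogenase, stood at 8.10, 7.92 and 8.60 against 5.14, 5.23 and 4.91, and at 3.41, 4.56 and 6.64 in the libraries left out. Cys1, a protein of the primary cilium, stood at 7.16, 7.28 and 7.03 against 4.23, 4.59 and 4.76, and at 3.70 to 4.14. In these genes the Yap-off organoids resembled the libraries left out more than those kept, as values. Atoh8, a basic helix-loop-helix factor (-2.82), Hspb2 (-2.74), Ms4a4d (-2.68), the cationic amino acid transporter Slc7a3 (-2.67), Septin4 (-2.56) and Egln3 were the others.

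Growth factors and fetal genes had single members called. Of 19 EGF family ligands and receptors 3 were higher and 0 lower, all ligands and all above all 6 controls. In the fit with all 6 controls 1 member was called higher. Neuregulin 4 (Nrg4) stood at 3.97, 4.16 and 3.74 against 5.83, 6.93 and 7.38 (2.76, SE 0.38, adjusted p = 0.02). Betacellulin (Btc) was higher by 2.18 and Tgfa by 1.68 (7.69, 8.23 and 7.64 against 9.12, 9.93 and 9.55). Btc lost its call under renewed quantile normalization and with all 6 controls. Of the fits without 1 library, Btc kept it only in that without wild-type organoid 2. The receptor Erbb3 did not pass (1.55, adjusted p = 0.29). Of 17 fetal and imprinted genes, the Notch-like Dlk1 was higher by 1.30 and the RNA-binding Igf2bp1 lower by 2.14 (7.04, 6.92 and 7.75 against 5.20, 4.95 and 5.14). Igf2, the fetal growth factor, stood at 6.87, 8.16 and 4.03 against 9.03, 9.70 and 10.04 and did not pass (3.23, SE 0.98, adjusted p = 0.13). The Igf2 groups did not overlap, with wild-type organoid 2 lowest. Reln, a matrix glycoprotein of stellate cells among others, was higher by 3.65 (4.65, 4.51 and 3.42 against 7.89, 7.62 and 8.02, SE 0.33, adjusted p = 0.0051) and was the 1 of 26 stellate and fibroblast markers called. The calcium-binding S100g was higher by 3.42 and was the 1 of 23 S100 and annexin genes called, where 1 was higher and 3 lower without wild-type organoid 2.

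In the remaining lists 0 to 2 genes were called, to be read beside the 3.77% of all genes. Among immediate early genes Egr1, a growth-induced zinc finger factor, stood at 7.83, 7.93 and 7.70 against 9.58, 9.58 and 9.58 (1.76, SE 0.12, adjusted p = 0.0021), and Zfp36, which destabilizes cytokine mRNAs, was higher by 1.18, 2 of 23. Without wild-type organoid 2 the immediate early list had 4 higher and 6 lower and a median of -0.30. In the unfolded protein response Sdf2l1 (1.16) and the secretory regulator Xbp1 (0.86) were higher, 2 of 24, and without wild-type organoid 2 that list had 1 higher and 4 lower. Of the 19 NRF2 genes the glutathione transferase Gstm3 was higher (1.93) and the exporter Abcc1 lower (-0.75). The heme oxygenase Hmox1 did not pass (11.92, 11.98 and 9.06 against 8.72, 7.74 and 7.74, adjusted p = 0.1). In the interferon list Ifit2 (-1.26) and Ddx58 (-1.04), both sensors or effectors of viral RNA, were lower, 2 of 22. The death receptor Eda2r (-1.56) was the 1 of 17 p53 targets called, and Tnfrsf19 (-0.78) the 1 of 23 Wnt genes. In TGF-beta and BMP signalling the receptor Tgfbr2 was higher (0.67) and Tgfb2 lower, 2 of 24. Of 29 replication and mitosis genes the ribonucleotide reductase Rrm2 was lower (-1.49), and Mki67 did not pass (-0.83, interval from -1.77 to 0.12). Among the replication genes 3 were higher and 1 lower without wild-type organoid 2, in the NRF2 list 3 and 2, and in the TGF-beta list 3 and 2. Of 24 Notch genes, 13 antigen presentation genes, 26 endothelial, 25 lymphocyte and neutrophil, 8 red cell and 7 sex-linked genes 0 were called by limma at an adjusted p under 0.05. For the 6 lists with no call the counts at an unadjusted p under 0.05 were 5, 4, 0, 2, 0 and 0 in that order.

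**Figure D5:**
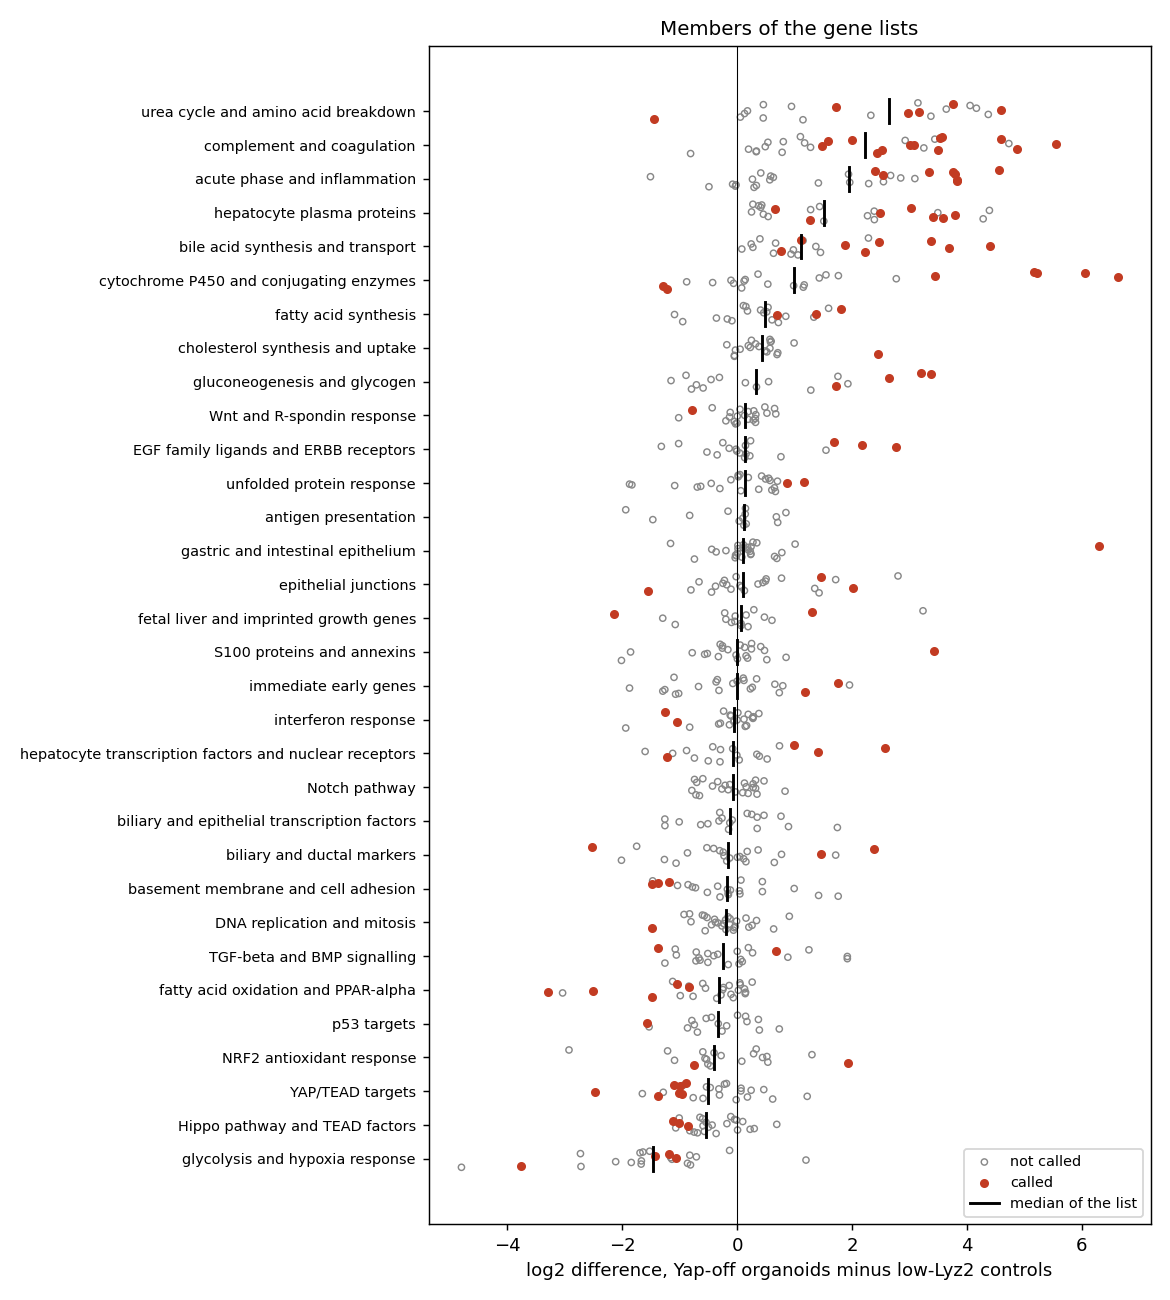
Log2 difference, Yap-off organoids minus low-Lyz2 controls, of every measured gene of each list, with called genes filled and the list's median as a bar. The urea cycle, complement and coagulation and acute phase lists have the highest medians (2.65, 2.22 and 1.95) and glycolysis and hypoxia the lowest (-1.47).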

How the data were processed

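Per the labels, RNA was amplified (Nugen Pico WT), labelled with biotin and hybridised to Affymetrix MoGene 1.0 ST arrays. The deposited values are intensities on a linear scale that the authors made with RMA, per the submitters' processing notes; no version was given, and log2 was taken here. No build is named for the array's own annotation. Median intensity per array lay between 13.6 and 15.6, and no 2 arrays were identical. The number of arrays limits the precision.

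Of 34760 rows, 22961 were in the probe annotation used, and the rest were left out. Of the 22961, 21640 naming 1 gene were kept and 1321 naming several were left out. Of the rows kept 21553 matched RefSeq names. Where a gene had several rows (954 genes) that of highest mean over the 12 arrays was used, giving 19937 genes, with no filter on low values. The 6 arrays were fitted with limma 3.58.1 in R 4.3.3, using lmFit followed by eBayes. The residual degrees of freedom were 4 and the prior 2.714. Adjusted p-values are Benjamini-Hochberg over all genes, and SE and 95% intervals are limma's. The fit was tested on simulated data drawn as independent arrays. Those data lacked the split among the 3 controls, so they do not check the calls made here. Figures were drawn with matplotlib 3.10.9.

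The samples compared, the gene lists and the named genes were chosen with earlier results of these data known. Lists are described by counts and medians, with no test. The naming rule takes Yap1 and the YAP and TEAD targets, up to 15 called genes each way beyond all 6 control libraries, up to 8 each way that hang on the controls, in each list up to 4 genes of largest difference, and the sex-linked genes. From the genes chosen by size it leaves out predicted and unnamed genes, pseudogenes, Y-linked genes and the Olfr, Vmn, Mup and Ugt1a families. Promoters are RefSeq windows of GRCm38.p6. Alternatives were other scalings, row choices, filters, spreads, controls and thresholds, the replicate number as a block, and leaving out each library.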

Additional observations from a re-analysis of the deposited data

How the results depend on the processing

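The counts of genes higher and lower were 267 and 484. They moved by over 1.5 times to 818 and 1708 with array weights, 506 and 1069 with the spread of all 12 arrays, 627 and 1368 with the Yap-on organoids added to the spread, and 115 and 68 with all 6 control libraries. At an adjusted p under 0.01 they were 89 and 34. The lower count alone moved to 147 under renewed quantile normalization, 98 with wild-type organoid 2 as the lone control and 291 with a 2-fold minimum. Leaving out 1 library gave 89 to 669 higher and 40 to 1177 lower. The cause of these changes was not tested, except that fewer samples or a smaller p threshold by construction give other counts. Centring the arrays, the mean or most variable row of a gene, leaving out the lowest 30% of genes, an intensity trend with robust eBayes and not counting X and Y genes kept both counts within 1.5 times. Of the 91 named genes called, 69 kept the call under renewed quantile normalization, 86 with the intensity trend, 86 with the spread of all 12 arrays, 48 with the lone control and 23 with all 6 controls. With all 6 controls 6 of them reversed: Ankrd1 (2.50), Dsp (1.18), Krt19 (0.0047), Lamc1 (0.44), Ptpn14 (0.64) and Rrm2 (0.26), none of them called there, with adjusted p between 0.64 and 1.00; their levels in the libraries left out were lower.

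Whether replicate numbers pair the samples could not be told. Deviations of same-numbered libraries from their group mean correlated at -0.16, -0.07 and 0.14, and those of differently numbered ones at -0.17 to 0.20. In the controls wild-type organoid 2 stood apart from hepatocyte 1 and 3, so these deviations cannot separate a shared number from that split. With the replicate block 199 genes were higher and 164 lower, and 71 of the 91 named calls were kept.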
